A study of Arabidopsis thaliana with 12 samples.

Results

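The genes described here drive plant cells through mitosis and build the new wall between daughter cells: 8 A-type cyclins, 9 B-type cyclins, 5 cyclin-dependent kinases (CDKs), the 2 transcription factors MYB3R1 and MYB3R4, 3 Aurora kinases, 3 genes of the spindle checkpoint and anaphase control, 4 spindle proteins and 6 proteins of the phragmoplast and cell plate. The 40 genes were taken by locus identifier from the 34262 loci counted, by a rule that names their roles and uses no measured value. Earlier results of these data were known when the genes and the comparison lists were chosen. All 40 passed the filter on low counts that left 21439 genes for testing.

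In the plant cell cycle, A- and B-type cyclins bind CDKs and switch on the kinase activity that carries a cell from the replication of its DNA into mitosis. Many of their genes, and many genes of spindle and cell plate, share the mitosis-specific activator (MSA) element in their promoters. It is a short motif that MYB3R transcription factors bind. After the chromosomes separate, the phragmoplast, a microtubule array found in plants, guides vesicles to the cell plate, and in a thickening root the cambium is the main dividing tissue.

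RNA sequencing was carried out on roots of Arabidopsis thaliana carrying 35S:XVE>>PLT5-TagRFP, in which the estradiol-activated regulator XVE, under the 35S promoter, switches on PLT5, a transcription factor, joined to TagRFP, a red fluorescent protein. The 4 groups were induced roots at 24 h, mock roots at 24 h, induced roots at 8 h and mock roots at 8 h, where induced roots received estradiol and mock roots the solvent DMSO. Each group had 3 biological replicates, and each sample pooled segments of 1.5 cm from just below the root-hypocotyl junction of 15 plants, with visible lateral roots taken off. Every group, mock included, carried the same construct, no line without it was analysed here, and the age of the plants is not given in the labels, so estradiol and PLT5 cannot be told apart. The segments hold mature root, and because RNA came from whole segments, a change in the number of dividing cells and a change in RNA per cell cannot be told apart for any gene below.

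Total counts per library ranged from 34958324 to 41447647. PLT5 followed the labels, with 92438 to 122939 counts in the 6 induced libraries, against 409 to 687 counts in the 6 mock libraries, where the native gene and the transgene are counted together. Markers of root tissues were present in all groups, and markers of green shoot tissue were also present, with RBCS1A at 590 ± 41.9 CPM (counts scaled to the library size; SD, n = 3) in induced and 754 ± 73.0 CPM in mock roots at 24 h. Many tissue markers differed between induced and mock roots. At 24 h all 3 endodermis and cork markers (median log2 fold change -4.24), all 3 xylem markers (-1.76), all 4 green shoot markers (-0.61), 2 of 3 phloem and 1 of 2 pericycle markers were called lower, with 1 phloem marker higher. At 8 h 0 of the 3 xylem markers were called by edgeR, by DESeq2 or at an unadjusted p under 0.05 (median -0.14), and 1 of 3 endodermis and cork and both pericycle markers were called lower. The summed level of 4 cambium markers (WOX4, PXY, LBD4 and ANT, all 4 called lower at each time) was 53.3 to 55.81 CPM in induced against 481.1 to 508.1 CPM in mock roots at 24 h, and 202.1 to 241.9 against 452.9 to 511.9 CPM at 8 h. The summed level of 5 root tip meristem markers (WOX5, PLT1, PLT2, SHR and SCR, all 5 called higher at 24 h and 3 at 8 h) was 84.31 to 102.2 CPM in induced against 16.11 to 18.28 CPM in mock roots at 24 h, and 32.75 to 40.62 against 13.71 to 19.37 CPM at 8 h. Most of each sum was SHR, with means of 77.1 and 13.5 CPM in induced and mock roots at 24 h and 30.5 and 13.4 CPM at 8 h. In induced roots at 24 h the means of WOX5, PLT1, PLT2 and SCR were 2.19, 4.0, 0.846 and 8.03 CPM. Of 6 markers of lateral root founding, 4 were tested. At each time 2 of them were called higher, and 1 was called lower at 24 h. No marker was at 0 in all 3 libraries of any group, although GATA23 and PUCHI of that list had at most 6 and 5 counts in any library. The part of these tissue markers in the results on mitotic genes was not tested. Between mock roots at 24 h and at 8 h, 0 of the 28 tissue markers tested were called by edgeR, 0 by DESeq2 and 0 at an unadjusted p under 0.05.

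Below, levels are TMM-scaled CPM, fold changes are log2 values with their standard error (SE), and rose, fell and called refer to an adjusted p under 0.05 in the quasi-likelihood test of edgeR over all genes tested. Comparisons of levels between genes use TPM, in which counts are divided by transcript length. The word overlap refers to the ranges of the 3 CPM values of each group.

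Promoter sequence is described first, because the MSA element is what many of these genes are known to share. Its core AACGG, read on either strand as AACGG or CCGTT, was searched from 250 bases before to 50 bases after the annotated gene start in the RefSeq TAIR10.1 genome. It was present for 24 of the 40 genes (60%), against 24.7% of 27443 promoters of the same length and 6 of 17 genes of DNA replication (35.3%). At least 2 copies were found for 16 of the 40 (40%), against 4.9% of all promoters. The longer letters TAACGG or CAACGG, which contain the core, were found for 55.0% of the 40 against 12.8% of all, and a window of only the 250 bases before the start gave 50% against 20.6%. A match is a string of letters and does not show that a factor binds there.

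The 250 bases before the start are shown for 3 B-type cyclins, which rose at 24 h and hold several copies, and for CYCA2;3, which fell at both times and holds none. Each is written 5′ to 3′ on the strand of its gene, with every AACGG or CCGTT in capitals. CYCB1;2 spans chr5:1861704-1861953 on the minus strand of TAIR10.1, CYCB1;3 spans chr3:3627274-3627523 (minus), CYCB2;3 spans chr1:7137829-7138078 (minus) and CYCA2;3 spans chr1:5361615-5361864 (plus).
CYCB1;2: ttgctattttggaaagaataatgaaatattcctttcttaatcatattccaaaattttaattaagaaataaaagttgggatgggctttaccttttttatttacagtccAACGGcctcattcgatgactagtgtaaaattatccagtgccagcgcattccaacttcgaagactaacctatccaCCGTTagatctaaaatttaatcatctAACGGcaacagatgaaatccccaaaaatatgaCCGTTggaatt
CYCB1;3: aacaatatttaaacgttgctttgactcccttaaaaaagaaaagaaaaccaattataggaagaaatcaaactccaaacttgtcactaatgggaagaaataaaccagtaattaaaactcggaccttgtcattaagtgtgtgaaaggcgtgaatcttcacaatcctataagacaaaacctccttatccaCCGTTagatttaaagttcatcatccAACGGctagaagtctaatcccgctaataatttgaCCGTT
CYCB2;3: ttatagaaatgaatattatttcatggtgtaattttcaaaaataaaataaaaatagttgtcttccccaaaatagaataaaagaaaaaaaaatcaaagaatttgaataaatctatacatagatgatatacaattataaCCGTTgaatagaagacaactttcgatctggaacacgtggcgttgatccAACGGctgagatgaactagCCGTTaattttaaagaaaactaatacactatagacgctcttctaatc
CYCA2;3: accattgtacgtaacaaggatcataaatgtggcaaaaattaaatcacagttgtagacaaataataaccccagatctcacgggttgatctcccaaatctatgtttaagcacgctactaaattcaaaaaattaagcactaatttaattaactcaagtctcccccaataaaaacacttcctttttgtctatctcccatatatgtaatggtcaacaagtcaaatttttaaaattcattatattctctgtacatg
CYCB1;2 has 4 copies in these bases, and CYCB1;3 and CYCB2;3 have 3 each. In the 3 cyclins the copies lie in both orientations. Copies and responses did not always go together across the genes. CYCA2;2, which rose at both times, has none in the 250 bases before its start, and MYB3R4, which fell at both times, has 1.

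**Figure D1:**
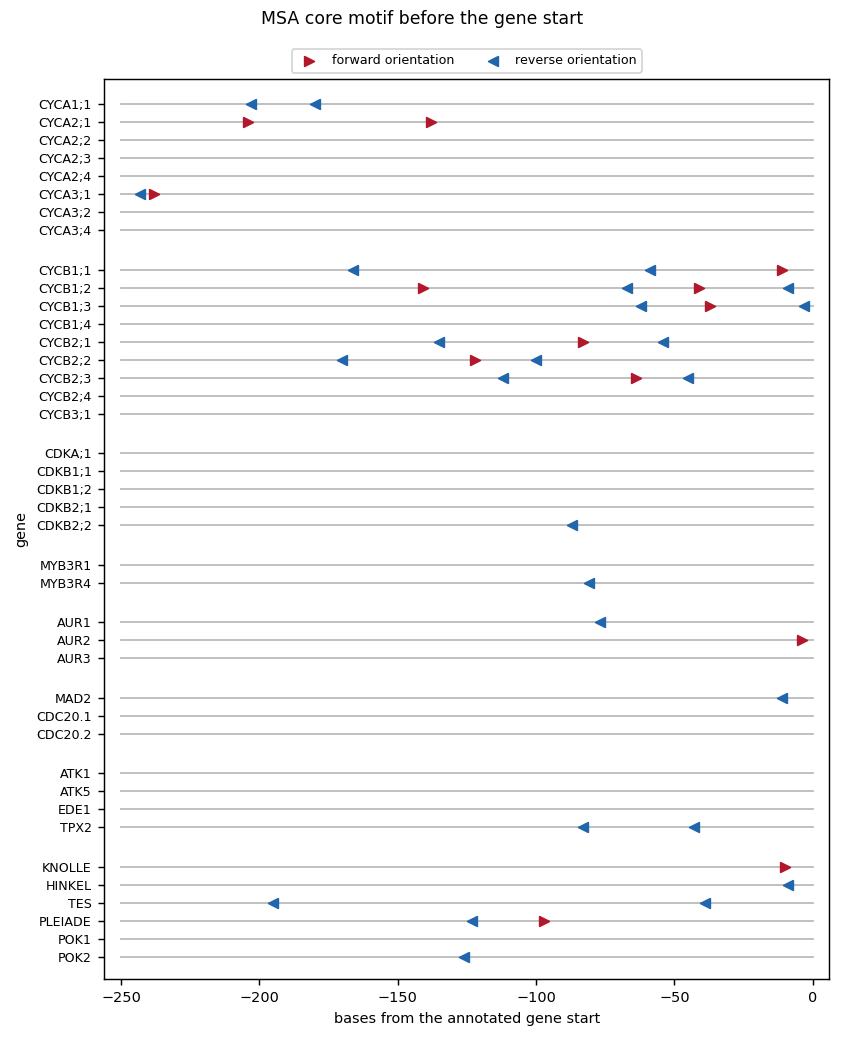
Positions of the MSA core in the 250 bases before the annotated start of each of the 40 genes, with distance from the start in bases on the horizontal axis. Triangles give the centre and orientation of each match. The core occurs for 20 of the 40 genes (50%), and the 6 genes with 3 or more copies in these 250 bases are all B-type cyclins. With the 50 bases after the start included, CYCA1;1, TPX2, KNOLLE and PLEIADE also have 3 copies.

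The responses of the genes to induction differed between the times. At 24 h, 29 of the 40 genes were higher in induced than in mock roots, 2 were lower and 9 were not called, with a median log2 fold change of 0.44 against 0.06 over all genes tested. Of all 21439 genes, 38.3% were called higher and 34% lower at that time (72.3% in all), so a called gene is the common case here. At 8 h, 3 of the 40 were higher, 14 lower and 23 not called, with a median of -0.19 against 0.02 over all genes, of which 22.3% were called higher and 23.1% lower (45.5% in all). The 8 h counts depend on the scaling: with total library sizes, which shift the all-gene median by 0.096 (8 h) and 0.142 (24 h), 5 genes were higher and 7 lower at 8 h, against 34.5% higher and 18.5% lower of all genes. The share of the 40 genes that was lower is then near that of all genes.

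The difference between the 24 h and 8 h responses was tested as an interaction. It was positive for 39 of the 40 genes, and 29 were called higher and 1 lower, against 18.2% and 22.6% of all genes tested (40.8% in all). Opposite calls were made for 6 genes: CYCB1;2, CYCB1;4, MAD2, CDC20.1, KNOLLE and HINKEL fell at 8 h and rose at 24 h. They are 15.0% of the 40 genes, against 0.541% of all genes tested with this pattern. With total library sizes each of these 6 but KNOLLE lost its 8 h call, and the shares were not computed for that scaling. CYCA2;2, CYCA2;4 and TES rose at both times (7.5% of the 40 and 18.1% of all), and CYCA2;3 and MYB3R4 fell at both times (5.0% and 20.2%). A further 20 genes were called at 24 h alone, all of them higher, 6 fell at 8 h alone (ATK1, ATK5, AUR2, CDKB2;2, CYCA1;1 and POK1), and CDKB1;2, CYCA3;1 and CYCA3;4 were called at neither time.

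**Figure D2:**
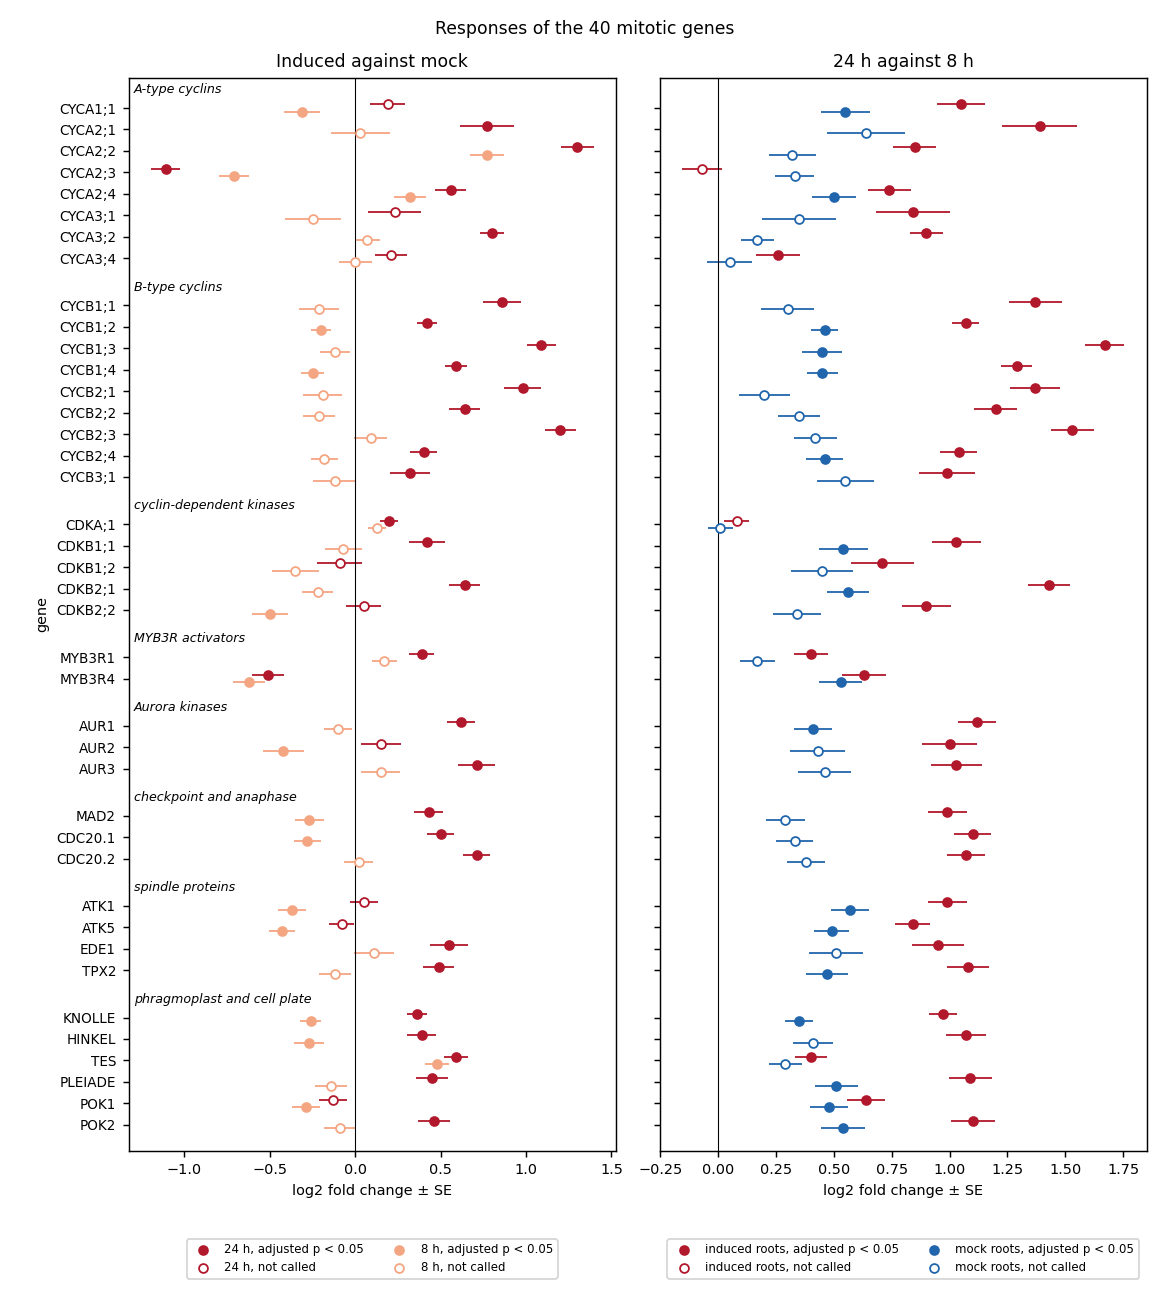
Log2 fold changes ± SE of the 40 genes, grouped by role, for induced against mock roots at 24 h and 8 h (left) and for 24 h against 8 h in induced and mock roots (right). Filled points have an adjusted p under 0.05; at 24 h most points lie right of 0 (29 called higher), at 8 h most lie left of it (14 called lower), and all 40 mock time changes are positive.

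Per transcript length, the median level of the 40 genes was 43.85 TPM in induced and 30.4 TPM in mock roots at 24 h, and 20.4 TPM in induced and 22.75 TPM in mock roots at 8 h. CYCA2;1 had the lowest TPM in each group, between 6.9 TPM in induced roots at 24 h and 2.32 TPM in mock roots at 8 h. The highest TPM belonged to CDKB2;1 in induced roots at 24 h (149 TPM) and to CDKA;1 in mock roots at 24 h (107 TPM), induced roots at 8 h (123 TPM) and mock roots at 8 h (104 TPM). The transcripts of the 40 genes together made up 2022, 2316 and 2437 CPM (lowest, median and highest library) in induced roots and 1622, 1830 and 1855 CPM in mock roots at 24 h. At 8 h the same sum was 1161, 1176 and 1247 CPM in induced and 1263, 1341 and 1374 CPM in mock roots. With TMM scaling the summed ranges did not overlap between induced and mock roots at either time, above mock at 24 h and below it at 8 h. The gap at 8 h was narrow (1247 against 1263 CPM). The sums were not compared with total library sizes, which shift the all-gene median at 8 h by 0.096 on the log2 scale.

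**Figure D3:**
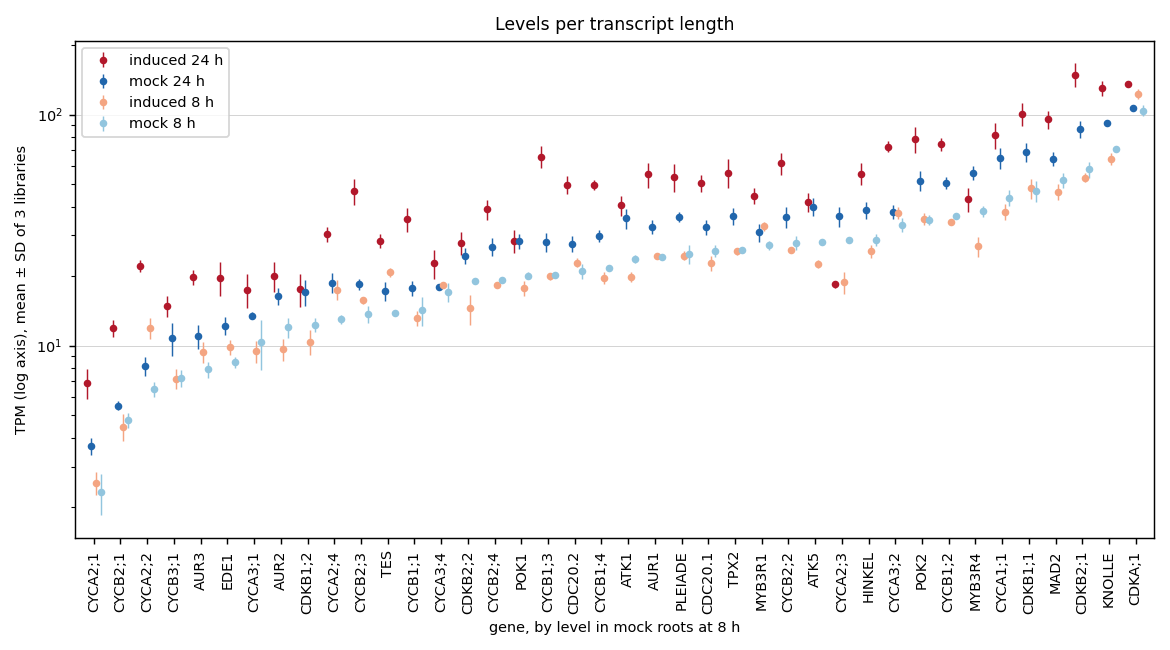
Level of each of the 40 genes in TPM (log axis) as the mean ± SD of 3 libraries per group, in order of the level in mock roots at 8 h. Levels in mock roots at 8 h run from 2.32 TPM for CYCA2;1 to 104 TPM for CDKA;1, and for most genes the points for 24 h lie above those for 8 h.

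Among the B-type cyclins, which carry cells through mitosis, all 9 rose at 24 h, against 38.3% of all genes tested, with a median log2 fold change of 0.64. At 8 h 2 of the 9 fell (22.2%, near the 23.1% of all genes) and 7 were not called, with a median of -0.19. The interaction was called for 8 of the 9, with a median of 0.85. CYCB2;3 (AT1G20610, chr1) had 50.1, 48.4 and 39.7 CPM in induced roots at 24 h, against 21.1, 18.8 and 20.1 CPM in mock roots. The groups did not overlap, and the fold change was 1.20 (SE 0.0914, adjusted p = 1.41e-07). At 8 h its 15.4, 16.1 and 16.4 CPM in induced roots overlapped the 16.3, 13.5 and 15.1 CPM in mock roots (fold change 0.09, SE 0.0948, adjusted p = 0.46). Of its exonic windows of 50 bases, 16.99% also occur in AT1G20590, so its counts are uncertain to that extent.

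CYCB1;3 (AT3G11520) had the largest interaction of the 40 genes. It had 56.2, 56.6 and 47.4 CPM in induced roots at 24 h, against 27.5, 22.3 and 25.5 CPM in mock roots (fold change 1.09, SE 0.0839, adjusted p = 1.59e-07). After 8 h it had 16.3, 16.8 and 17.4 CPM in induced and 19, 18 and 18 CPM in mock roots (fold change -0.12, SE 0.0871, adjusted p = 0.277). The groups did not overlap at either time, yet the 8 h difference did not pass the test, and the interaction was 1.21 (SE 0.121, adjusted p = 9.59e-06). CYCB1;2 (AT5G06150) had 67.0, 69.6 and 63.1 CPM in induced roots at 24 h, against 53.3, 46.5 and 49.9 CPM in mock roots. Its levels at 8 h were 32.4, 30.8 and 31.9 CPM in induced roots, against 36.5, 37 and 35.6 CPM in mock roots. All induced libraries lay above all mock libraries at 24 h (fold change 0.42, SE 0.0568, adjusted p = 2.83e-05) and below them at 8 h (fold change -0.20, SE 0.0581, adjusted p = 0.0149). The 8 h call was lost with total library sizes and without induced 8 h replicate 2 (highest adjusted p 0.155), and 11.29% of its exonic windows occur in AT1G34460.

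CYCB1;4 (AT2G26760) showed the same pair of directions as CYCB1;2. It had 45.0, 46.0 and 42.5 CPM in induced roots at 24 h, against 31.1, 27.2 and 30.1 CPM in mock roots, a fold change of 0.59 (SE 0.0645, adjusted p = 3.76e-06). The 8 h values were 19.2, 16.9 and 18.6 CPM in induced roots, against 22.3, 21.3 and 21.2 CPM in mock roots, a fold change of -0.25 (SE 0.0669, adjusted p = 0.00959). Neither pair of groups overlapped, and the 8 h call was lost with total library sizes (adjusted p = 0.0678). CYCB1;1, much used as a reporter of cells at the entry into mitosis, had 30.2, 29.8 and 24.6 CPM in induced and 16.9, 14.5 and 15.4 CPM in mock roots at 24 h (fold change 0.86, adjusted p = 1.94e-05). The remaining B-type cyclins rose at 24 h by 0.98 (CYCB2;1), 0.64 (CYCB2;2), 0.40 (CYCB2;4) and 0.32 (CYCB3;1) on the log2 scale. The call of CYCB3;1 (adjusted p = 0.0293) was lost under 7 of 18 alternatives, among them DESeq2 and leaving out replicate 1 or 2 of either 24 h group, with adjusted p-values between 0.00388 and 0.131 over all of them.

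The A-type cyclins, which act from DNA replication to early mitosis, were called in both directions. At 24 h 4 of the 8 rose, 1 fell and 3 were not called. These are 50% higher and 12.5% lower, against 38.3% and 34% of all genes tested. At 8 h 2 rose, 2 fell and 4 were not called. The 25% in each direction is near the 22.3% and 23.1% of all genes. CYCA2;2 (AT5G11300) had 21.2, 21.7 and 19.7 CPM in induced roots at 24 h, against 9.47, 7.78 and 8.25 CPM in mock roots. At 8 h it had 10.8, 12.9 and 11 CPM in induced roots, against 7.44, 6.6 and 6.35 CPM in mock roots. Induced libraries were above all mock libraries at both times, with a 24 h fold change of 1.30 (SE 0.0955, adjusted p = 1.06e-07) and an 8 h fold change of 0.77 (SE 0.0992, adjusted p = 6.21e-05).

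CYCA2;3 (AT1G15570, chr1), known for holding back the switch from division to endoreduplication, moved the other way from its close relative CYCA2;2. It had 19.3, 17.9 and 18.2 CPM in induced roots at 24 h, against 41.3, 35.5 and 43.1 CPM in mock roots. In the 8 h libraries it had 17.6, 18.8 and 21.8 CPM in induced roots, against 32.9, 31.4 and 31.2 CPM in mock roots. The induced libraries were below all mock libraries at both times, and the 24 h fold change was -1.11 (SE 0.0865, adjusted p = 1.73e-07), with -0.71 for 8 h (SE 0.0867, adjusted p = 3.8e-05). It was the 1 gene of the 40 with a negative interaction (-0.40, SE 0.122, adjusted p = 0.02), and the 1 with a negative difference between induced roots at 24 h and at 8 h (-0.07, adjusted p = 0.505). The fold changes of the other A-type cyclins at 24 h and 8 h were 0.80 and 0.07 for CYCA3;2, 0.77 and 0.03 for CYCA2;1, 0.56 and 0.32 for CYCA2;4, 0.23 and -0.25 for CYCA3;1, 0.21 and 0.00 for CYCA3;4, and 0.19 and -0.31 for CYCA1;1. Of these, CYCA3;2, CYCA2;1 and CYCA2;4 rose at 24 h, CYCA2;4 rose at 8 h and CYCA1;1 fell at 8 h. The 8 h call of CYCA2;4 was lost with replicate 3 of either 8 h group left out (highest adjusted p 0.0659), and that of CYCA1;1 with total library sizes and with replicate 1 or 3 of mock or replicate 1 or 2 of induced roots at 8 h left out (highest adjusted p 0.123).

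Among the CDKs, CDKA;1 is the kinase present throughout the cell cycle and the CDKB kinases are specific to plants and act around mitosis. At 24 h 3 of the 5 rose (60%, against 38.3% of all genes tested) and 2 were not called. At 8 h 1 fell (20%, near the 23.1% of all genes) and 4 were not called. CDKB2;1 (AT1G76540) had 107, 105 and 87.1 CPM in induced roots at 24 h, against 68.2, 57.7 and 65.6 CPM in mock roots. The groups did not overlap (fold change 0.64, SE 0.089, adjusted p = 3.07e-05), and induced replicate 3 was the lowest of its group. At 8 h its 35.4, 38 and 37.7 CPM in induced roots lay below the 46.2, 39.2 and 44.0 CPM in mock roots without passing the test (fold change -0.22, SE 0.0909, adjusted p = 0.0656).

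CDKB2;2 (AT1G20930), its close relative, was called at 8 h and not at 24 h. It had 20.2, 20.2 and 16.8 CPM in induced roots at 24 h, overlapping 18.1, 17.2 and 19.8 CPM in mock roots (fold change 0.05, SE 0.103, adjusted p = 0.652). After 8 h it had 10.2, 8.74 and 11.8 CPM in induced roots, against 14.7, 14.5 and 14.3 CPM in mock roots, without overlap (fold change -0.50, SE 0.107, adjusted p = 0.00244). CDKB1;1 (AT3G54180) had 74.6, 70.7 and 59.9 CPM in induced roots at 24 h, against 54.7, 45.3 and 53.2 CPM in mock roots (fold change 0.42, SE 0.104, adjusted p = 0.00294). Its 8 h groups overlapped, at 30.4, 33.5 and 36.6 CPM in induced and 39.2, 32.0 and 34.2 CPM in mock roots (fold change -0.07). CDKA;1 rose by the least of the called genes at 24 h (fold change 0.20, adjusted p = 0.00443), and CDKB1;2 was not called (-0.09 at 24 h and -0.35 at 8 h).

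The 2 MYB3R transcription factors, which bind the MSA element, were called in opposite directions at 24 h. MYB3R1 (AT4G32730) had 90.9, 85.0 and 78.4 CPM in induced roots at 24 h, against 69.2, 58.0 and 66.8 CPM in mock roots. Its levels at 8 h were 61.4, 66.4 and 65.5 CPM in induced roots, against 60.4, 54.7 and 57.0 CPM in mock roots. It rose at 24 h (fold change 0.39, SE 0.074, adjusted p = 0.000417), and at 8 h its induced libraries lay above the mock ones without passing the test (fold change 0.17, SE 0.0744, adjusted p = 0.0875).

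MYB3R4 (AT5G11510) had 85.0, 82.2 and 68.4 CPM in induced roots at 24 h, against 119, 103 and 114 CPM in mock roots. The 8 h values were 50.1, 45.9 and 55.8 CPM in induced roots, against 82.9, 74.1 and 75.7 CPM in mock roots. The induced libraries were below all mock libraries at both times, with a 24 h fold change of -0.51 (SE 0.0926, adjusted p = 0.000296) and an 8 h fold change of -0.62 (SE 0.0938, adjusted p = 0.000221). Its interaction was 0.10 (adjusted p = 0.563), so a difference between the responses at the 2 times was not shown for MYB3R4.

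Among the Aurora kinases, AUR1 and AUR2 act at the spindle and the cell plate and AUR3 at the centromeres. AUR1 (AT4G32830) had 45.7, 40.9 and 35.9 CPM in induced roots at 24 h, against 28.2, 24.5 and 27.2 CPM in mock roots (fold change 0.62, SE 0.0809, adjusted p = 2.01e-05). At 8 h it had 19.4, 18.5 and 18.4 CPM in induced and 20.1, 19.8 and 20.3 CPM in mock roots, just below mock and not called (fold change -0.10, SE 0.0835, adjusted p = 0.375). AUR3 (AT2G45490) had 12.6, 11.6 and 10.9 CPM in induced roots at 24 h, against 7.58, 6.18 and 7.72 CPM in mock roots (fold change 0.71, SE 0.107, adjusted p = 6.68e-05). Both genes stood above mock without overlap at 24 h, whereas the 8 h values of AUR3, 5.51, 6.41 and 5.31 CPM in induced and 4.78, 5.22 and 5.58 CPM in mock roots, overlapped (fold change 0.15).

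AUR2 (AT2G25880) fell at 8 h and was not called at 24 h. It had 25.4, 24.9 and 19.5 CPM in induced and 22.7, 18.9 and 21.5 CPM in mock roots at 24 h, which overlap (fold change 0.15, SE 0.116, adjusted p = 0.27). In the 8 h libraries it had 11.5, 10.4 and 13 CPM in induced roots, against 17.2, 13.9 and 15.6 CPM in mock roots (fold change -0.42, SE 0.121, adjusted p = 0.0135). That call was lost with replicate 1 of mock or replicate 2 of induced roots at 8 h left out (highest adjusted p 0.0618), and 24.8% of the gene span overlaps AT2G25890 on the opposite strand, whose reads may not be told apart since the strand setting of the counting is not given in the sources used here.

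All 3 genes of the checkpoint and anaphase control rose at 24 h, against 38.3% of all genes tested. At 8 h 2 of them fell (66.7%, against 23.1% of all genes). MAD2 (AT3G25980), which halts anaphase until chromosomes are attached, had 63.8, 61.0 and 54.0 CPM in induced roots at 24 h, against 47.4, 40.9 and 44.3 CPM in mock roots (fold change 0.43, SE 0.0831, adjusted p = 0.000477). After 8 h it had 28, 29.6 and 32.3 CPM in induced roots, against 39.2, 33.5 and 35.8 CPM in mock roots (fold change -0.27, SE 0.0848, adjusted p = 0.0204). No groups of MAD2 overlapped, and the 8 h call was lost with total library sizes and with replicate 1 of mock or replicate 1 or 2 of induced roots at 8 h left out (highest adjusted p 0.0985).

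CDC20.1 (AT4G33270) and CDC20.2 (AT4G33260), neighbouring genes for activators of the anaphase-promoting complex, share 33.21% and 36.28% of their exonic windows of 50 bases, so their split is uncertain. CDC20.1 had 53.4, 55.0 and 47.8 CPM in induced roots at 24 h, against 39, 33.7 and 38 CPM in mock roots (fold change 0.50, SE 0.0782, adjusted p = 9.36e-05). Its levels at 8 h were 22.7, 23.9 and 26.1 CPM in induced roots, against 31.4, 29.2 and 27.7 CPM in mock roots (fold change -0.28, SE 0.0802, adjusted p = 0.0127). The 8 h call was lost with total library sizes and without mock 8 h replicate 1 (highest adjusted p 0.0686). CDC20.2 had 50.8, 48.2 and 43.2 CPM in induced roots at 24 h, against 31.7, 28.1 and 26.9 CPM in mock roots (fold change 0.71, SE 0.0816, adjusted p = 5.98e-06). Its 8 h groups overlapped, at 22.3, 23.6 and 21.8 CPM in induced and 23.8, 20.3 and 22.7 CPM in mock roots (fold change 0.02).

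Of the 4 spindle proteins, the 2 kinesins that move towards microtubule minus ends, ATK1 and ATK5, fell at 8 h and were not called at 24 h, and TPX2 and EDE1 were not called at 8 h and rose at 24 h. ATK5 (AT4G05190) had 72.9, 69.7 and 61.1 CPM in induced and 72.4, 65.1 and 77.3 CPM in mock roots at 24 h (fold change -0.08, SE 0.0737, adjusted p = 0.365). The 8 h values were 37.7, 36.4 and 39.5 CPM in induced roots, against 52.6, 50.3 and 49.8 CPM in mock roots (fold change -0.43, SE 0.0751, adjusted p = 0.000638). The groups overlapped at 24 h and were clearly apart at 8 h. ATK1 (AT4G21270) had 63.5, 58.5 and 52.6 CPM in induced and 59.2, 49.7 and 59.6 CPM in mock roots at 24 h (fold change 0.05, SE 0.0817, adjusted p = 0.584). At 8 h it had 28.2, 28.8 and 31.0 CPM in induced roots, against 39.1, 36.2 and 38.4 CPM in mock roots (fold change -0.37, SE 0.0839, adjusted p = 0.00347).

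TPX2 (AT1G03780), which helps nucleate spindle microtubules, had 90.8, 80.3 and 68.3 CPM in induced roots at 24 h, against 62.5, 52.0 and 56.1 CPM in mock roots (fold change 0.49, SE 0.091, adjusted p = 0.000374). In the 8 h libraries it had 36.6, 37.3 and 39.2 CPM in induced and 41.4, 41.1 and 40.6 CPM in mock roots, below mock in each library but not called (fold change -0.12, adjusted p = 0.298). EDE1 (AT2G44190), a microtubule-binding protein of the spindle, had 21.5, 20.6 and 15.8 CPM in induced roots at 24 h, against 14.6, 12.3 and 12.6 CPM in mock roots (fold change 0.55, SE 0.113, adjusted p = 0.000749). Its 8 h values, 10.5, 9.1 and 10.5 CPM in induced and 9.87, 8.87 and 9.03 CPM in mock roots, overlapped (fold change 0.11). The interaction was called for all 4 genes, but that of EDE1 (0.44, adjusted p = 0.0494) was lost under 13 of 17 alternatives and that of ATK5 (0.35, adjusted p = 0.0186) without induced 24 h replicate 1 (adjusted p = 0.0507).

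The phragmoplast and cell plate genes gave 5 rises at 24 h (83.3%, against 38.3% of all genes tested), with 1 gene not called. At 8 h 1 rose and 3 fell (16.7% and 50%, against 22.3% and 23.1% of all genes), and 2 were not called. KNOLLE (AT1G08560), the syntaxin that fuses vesicles into the cell plate, had 93.6, 89.5 and 81.9 CPM in induced roots at 24 h, against 71.8, 66.4 and 68.5 CPM in mock roots (fold change 0.36, SE 0.0597, adjusted p = 0.000149). After 8 h it had 44.6, 42.8 and 48.0 CPM in induced roots, against 55.1, 53.8 and 52.7 CPM in mock roots (fold change -0.26, SE 0.0606, adjusted p = 0.00451). Both pairs of groups were apart, in opposite directions, and both calls were made in all 18 alternatives, although 31.4% of its span overlaps AT1G08550 on the opposite strand.

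HINKEL and TES are related kinesins that activate the kinase cascade widening the phragmoplast, and they were called in opposite directions at 8 h. HINKEL (AT1G18370) had 103, 97.5 and 83.8 CPM in induced roots at 24 h, against 77.5, 65.3 and 74.6 CPM in mock roots (fold change 0.39, SE 0.0858, adjusted p = 0.00133). Its levels at 8 h were 43.8, 43.4 and 48.3 CPM in induced roots, against 57.0, 50.8 and 55.9 CPM in mock roots (fold change -0.27, SE 0.0872, adjusted p = 0.0225). The 8 h call was lost with total library sizes and with replicate 1 or 3 of mock or replicate 1 or 2 of induced roots at 8 h left out (highest adjusted p 0.103). TES (AT3G43210) had 52.9, 51.7 and 46.8 CPM in induced roots at 24 h, against 33.9, 30.3 and 36.4 CPM in mock roots (fold change 0.59, SE 0.0695, adjusted p = 7.78e-06). The 8 h values were 36.5, 39.3 and 38.6 CPM in induced roots, against 27.4, 27.9 and 26.8 CPM in mock roots (fold change 0.48, SE 0.0704, adjusted p = 0.000173). TES was above mock in every library at both times, and its interaction was 0.11 (adjusted p = 0.394). A test of HINKEL against TES was not made.

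POK1 (AT3G17360) and POK2 are kinesins that mark the site where the cell plate meets the mother wall. POK1 had 104, 97.4 and 83.9 CPM in induced and 105, 96.2 and 111 CPM in mock roots at 24 h, which overlap (fold change -0.13, SE 0.081, adjusted p = 0.158). At 8 h it had 58.3, 58.7 and 66.2 CPM in induced roots, against 73.6, 73.1 and 77.5 CPM in mock roots (fold change -0.29, SE 0.0819, adjusted p = 0.0121). That 8 h call was lost with total library sizes and without induced 8 h replicate 2 (highest adjusted p 0.0647). POK2 rose at 24 h (0.46, adjusted p = 0.000689) and so did PLEIADE, the microtubule bundler MAP65-3 of the phragmoplast midzone (0.45, adjusted p = 0.000768), and neither was called at 8 h (-0.09 and -0.14).

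**Figure D4:**
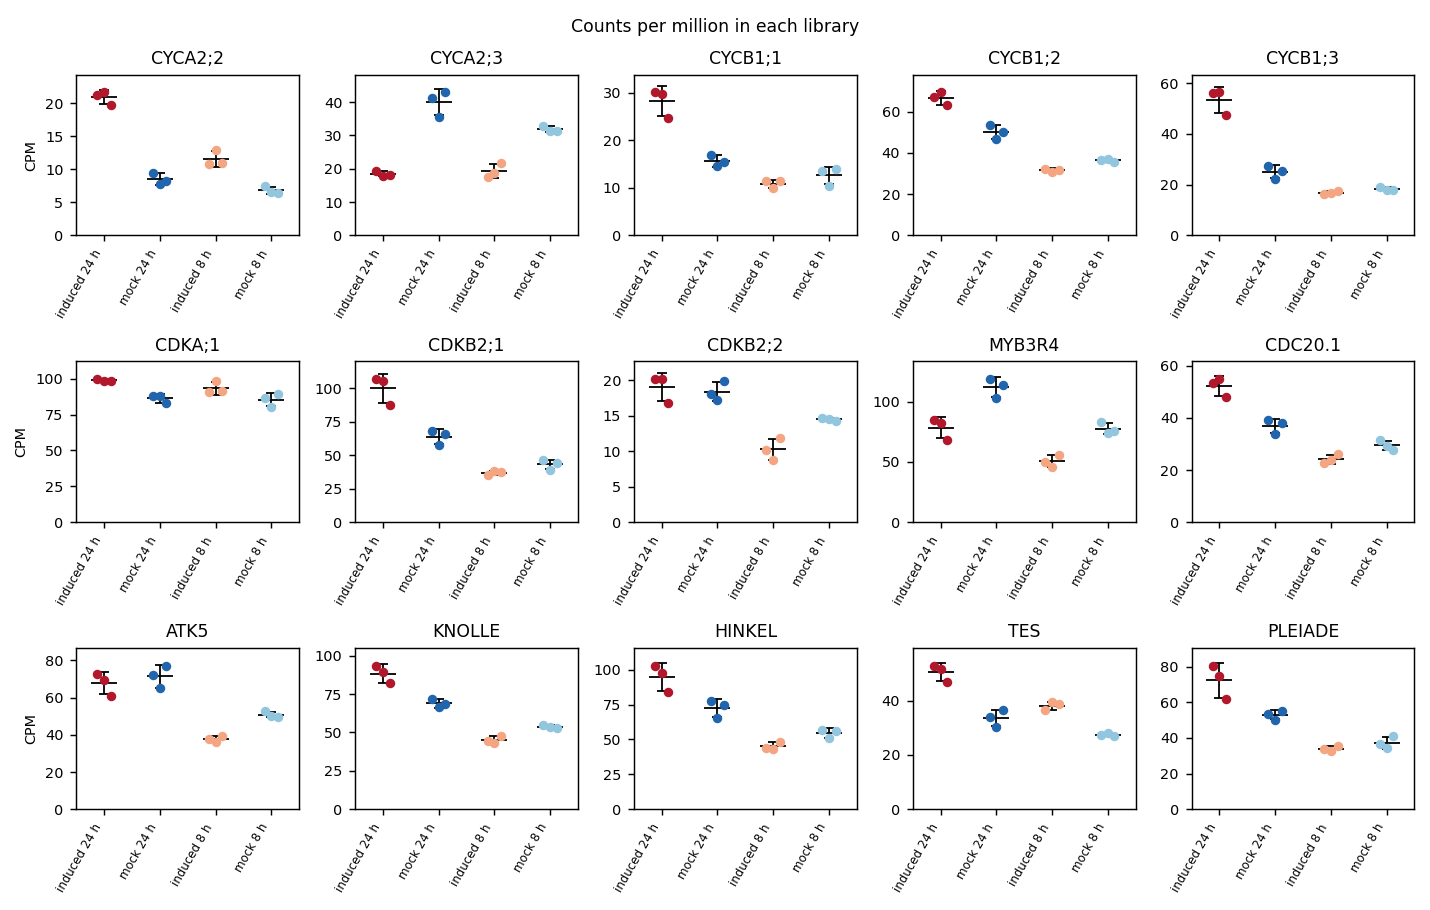
TMM-scaled CPM of 15 of the genes in each library, with induced and mock roots at 24 h and then at 8 h along the horizontal axis; points are libraries and bars the mean ± SD of 3. CYCB1;2, CDC20.1, KNOLLE and HINKEL are above mock at 24 h and below it at 8 h, CYCA2;2 and TES above it at both times, and CYCA2;3 and MYB3R4 below it at both times.

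The 8 h calls were lost more often among the alternatives than those at 24 h. Of the 17 genes called at 8 h, 8 were called in all 18 alternatives (CYCA2;2, CYCA2;3, CDKB2;2, MYB3R4, ATK1, ATK5, KNOLLE and TES), and of the 31 called at 24 h, 30 were, CYCB3;1 being the exception. The number lower at 8 h was 14, and it fell to 8 when replicate 2 of the induced and to 9 when replicate 1 of the mock 8 h libraries was left out. Without regard to calls, the induced libraries lay apart from the mock ones for 21 genes downwards and 5 upwards at 8 h, against 26.9% and 28.2% of all genes, and for 2 genes downwards and 28 upwards at 24 h, against 34.9% and 40.4% of all genes. Of the 30 interaction calls, 26 were made in all 17 alternatives; the others were EDE1, ATK5, CYCA2;1, lost when mock 8 h replicate 1, induced 8 h replicate 2 or induced 24 h replicate 1 was left out (highest adjusted p 0.0658), and CDKB1;1, lost without mock 8 h replicate 1, mock 24 h replicate 2 or induced 24 h replicate 1 (highest adjusted p 0.0546).

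In mock roots, where few genes differed between the times, 17 of the 40 mitotic genes were called higher at 24 h than at 8 h and 23 were not called, and none of the 17 calls was made in all 18 alternatives. The log2 difference was positive for all 40 genes, with a median of 0.44 against -0.004 over all genes tested. The calls, all higher, compare with 0.662% of all genes tested, of which 0.49% were higher and 0.173% lower. The 3 libraries at 24 h lay above the 3 at 8 h for 35 genes, against 6.72% of all genes tested, with 6.68% of all genes apart downwards, and the 5 that overlapped were CYCA3;1, CYCA3;2, CYCA3;4, CDKA;1 and MYB3R1. No gene of the 40 fell by edgeR or DESeq2, or at an unadjusted p under 0.05.

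The called genes came from 7 of the 8 role groups: 4 B-type cyclins, 2 A-type cyclins, 2 CDKs, MYB3R4, AUR1, 3 spindle proteins and 4 of the phragmoplast and cell plate. The smallest adjusted p-values belonged to CYCB1;2 (0.46, SE 0.0576, adjusted p = 0.0163), ATK1 (0.57, SE 0.0829, adjusted p = 0.0244), CYCB1;4 (0.45, SE 0.0659, adjusted p = 0.0244), ATK5 (0.49, SE 0.0744, adjusted p = 0.0277), CDKB2;1 (0.56, SE 0.0902, adjusted p = 0.0285), and KNOLLE (0.35, SE 0.0602) and POK1 (0.48, SE 0.0815), which share an adjusted p of 0.0295. In each of these the 3 mock libraries at 24 h lay above the 3 at 8 h. CYCB1;2 had 53.3, 46.5 and 49.9 CPM in mock roots at 24 h, against 36.5, 37 and 35.6 CPM at 8 h. The checkpoint genes MAD2, CDC20.1 and CDC20.2 differed by 0.29, 0.33 and 0.38 without a call. By contrast CDKA;1 differed by 0.01 (SE 0.0528) and CYCA3;4 by 0.05 (SE 0.0966).

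The mock calls rest on each of several libraries. With mock 8 h replicate 1 or 3, or mock 24 h replicate 1 or 3, left out, 0 of the 40 genes were called, and 1 was without mock 8 h replicate 2, while 33 to 36 of the 40 still had an unadjusted p under 0.05 in these fits, against 7.39% to 10.4% of all genes tested. Leaving out mock 24 h replicate 2 gave 21 calls, leaving out induced 8 h replicate 1 gave 9 and leaving out induced 24 h replicate 2 gave 10; the induced ones are libraries that enter through the shared estimate of spread. The number called was 28 with DESeq2 and 0 with the 6 mock libraries alone, where 0 of 20891 genes passed and 34 of the 40 had an unadjusted p under 0.05, against 8.09% of all genes. The size of the difference moved little: the median over the 40 genes was 0.38 to 0.50 in all of these settings, and 38 to 40 genes were positive.

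**Figure D5:**
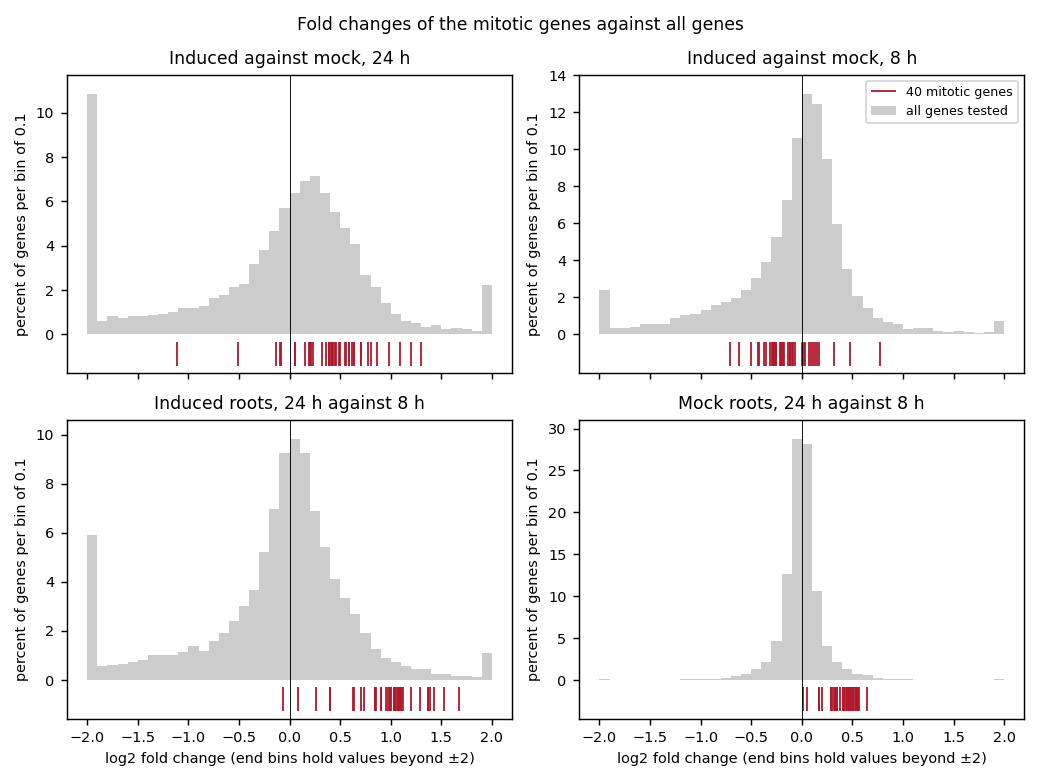
Distribution of log2 fold changes over all 21439 genes tested (grey bars, percent of genes per bin of 0.1) with the 40 mitotic genes as red ticks, for induced against mock roots at 24 h and 8 h (top) and for 24 h against 8 h in induced and mock roots (bottom). In mock roots the bars are narrow around -0.004 and all 40 ticks lie to the right of 0, with a median of 0.44.

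In induced roots, 38 of the 40 genes were higher at 24 h than at 8 h, against 27.9% of all genes tested (30.2% lower, 58% in all), with a median of 1.01. The 3 libraries at 24 h lay above the 3 at 8 h for 37 of the 40, against 32.1% of all genes upwards and 33.3% downwards. CYCB1;3 had the largest difference (1.67, SE 0.0859, adjusted p = 1.76e-08), followed by CYCB2;3 (1.53), CDKB2;1 (1.43) and CYCA2;1 (1.39). CDKA;1 (0.08) and CYCA2;3 (-0.07) were not called, and CYCA3;4 (0.26, adjusted p = 0.0358) lost its call under 7 of 18 alternatives, among them DESeq2 and leaving out replicate 2 or 3 of induced roots at 8 h or replicate 1 or 2 at 24 h (highest adjusted p 0.174). These time differences use the same libraries as the comparisons of induced with mock roots. For CYCB1;2 the time difference was 1.07 in induced and 0.46 in mock roots, for ATK5 it was 0.84 and 0.49, for MYB3R4 0.63 and 0.53, and for TES 0.40 and 0.29.

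The responses were also set beside the MSA core. At 24 h, 19 of the 24 genes with the core rose and 1 fell, with a median of 0.48, and of the 16 without it 10 rose and 1 fell, with a median of 0.40. For the interaction the medians were 0.61 with the core and 0.39 without it, and in mock roots over time 0.42 and 0.45. These are descriptions of 24 and 16 genes and were not tested. Genes without the core in the window included CYCB2;4, which rose at 24 h, and genes with it included MYB3R4, which fell.

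A wider list of 62 other mitotic genes, of which 61 could be tested, gave a looser picture. At 24 h 37 rose and 7 fell (60.7% and 11.5%, against 38.3% and 34% of all genes tested), with a median of 0.25. At 8 h 10 rose and 12 fell (16.4% and 19.7%, against 22.3% and 23.1% of all genes), with a median of -0.01. Among partners and regulators of CDKs, CKS2, a small CDK-binding subunit, rose at 24 h by 0.84 (SE 0.103, adjusted p = 1.07e-05), and CYCH;1 and CDKD;1 of the CDK-activating kinase rose by 0.54 and 0.60. Of 16 genes of the anaphase-promoting complex and its regulators, 11 rose and 3 fell at 24 h. These are 68.8% and 18.8%, against 38.3% and 34% of all genes tested. At 8 h 7 rose and 1 fell (43.8% and 6.25%, against 22.3% and 23.1% of all genes). APC1, a scaffold subunit, rose at both times, by 0.88 at the later (SE 0.0506, adjusted p = 1.12e-08) and by 0.35 at the earlier (SE 0.0507, adjusted p = 0.000163), and OSD1, an inhibitor of the complex, rose at 24 h by 1.00. SCL28, a transcription factor of the same circuit as the MYB3R proteins, rose at 24 h by 0.56 (adjusted p = 7.14e-05).

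Of 11 further checkpoint and chromosome segregation genes, 8 rose at 24 h (72.7%, against 38.3% of all genes tested). The other 3 were not called. PANS1, a protector of sister chromatid cohesion, rose by 0.69 (SE 0.098, adjusted p = 3.72e-05), the condensin subunit SMC2 by 0.45 and the separase ESP by 0.69. At 8 h BUBR1 fell by 0.39 (adjusted p = 0.0172). The 23 genes of the preprophase band, phragmoplast and cell plate gave 10 rises and 4 falls at 24 h. The rises (43.5%) were near the 38.3% of all genes tested, and the falls were 17.4% against 34%. At 8 h 2 rose and 10 fell (8.7% and 43.5%, against 22.3% and 23.1% of all genes). PATL1, AIR9 and MAP65-4 fell at 24 h by 1.58, 0.57 and 0.88, and MAP65-4 fell at 8 h by 0.72. In mock roots over time, 9 of the 61 were higher by edgeR (14.8%, against 0.49% of all genes tested) and 19 by DESeq2. Among them were MKK6 (0.59, adjusted p = 0.0285), BUB3.1 (0.61), WYRD (0.47) and the centromeric histone CENH3 (0.47).

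Genes of DNA replication, the step before mitosis, were described for comparison. Of 17 such genes, 14 rose at 24 h (82.4%, against 38.3% of all genes tested), with a median of 0.61. At 8 h 7 rose and 1 fell (41.2% and 5.88%, against 22.3% and 23.1% of all genes), with a median of 0.15. In mock roots over time the median was 0.13, 0 of the 17 were called by edgeR and 1 by DESeq2, and 3 (of 17) had an unadjusted p under 0.05, against 9.48% of all genes tested. E2FA, an activator of replication genes, rose at 24 h by 1.72 (adjusted p = 3.89e-09) and at 8 h by 1.02 (adjusted p = 2.7e-06). MCM2, MCM3 and MCM5 of the replicative helicase rose at both times, by 0.66, 0.83 and 0.65 at 24 h and by 0.22, 0.31 and 0.29 at 8 h. The difference between the replication and the mitotic genes was not tested.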

How the data were processed

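Gene counts were measured in 12 RNA sequencing libraries of Arabidopsis root segments. Per the labels' protocols, RNA was purified with GeneJET Plant RNA reagents and sequenced from TruSeq Stranded Total RNA libraries. The deposited files hold whole-number counts per locus, with no normalization, per the file headers and the values, and the submitters' processing notes name TAIR10 as build. Neither aligner, counting program nor strand setting is given in the sources used here. Library totals were 34958324 to 41447647 counts. Replicates are 3 biological replicates per group per the labels, pairs of them differed beyond sampling noise (chi-square per degree of freedom 7.937 to 14.836), and none was merged.

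The 40 genes and the comparison lists were chosen with earlier results of these data known. The main test was edgeR 4.0.16 (quasi-likelihood F test in R 4.3.3, glmQLFit and glmQLFTest), with TMM scaling, filterByExpr by group and 1 coefficient per group over all 12 libraries, which left 21439 genes and a biological coefficient of variation of 0.0926. Benjamini-Hochberg adjustment ran over all of them, with calls at 0.05. Contrasts were induced against mock roots within each time, the difference of these 2 (24 h minus 8 h), and 24 h against 8 h in mock and in induced roots. The SE of a log2 fold change is its size divided by the square root of F. TPM used the union of exons of RefSeq TAIR10.1, in which all 40 genes have the coordinates of the files. The code recovered changes of known size in simulated counts. There a small part of the genes changed, evenly up and down, and only in induced roots at 24 h. That simulation cannot show how the scaling behaves where many genes change, as in these data.

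Genes given with every library and full statistics were, in each role group, the 2 with the smallest adjusted p at 24 h and the 1 at 8 h among those called, those called against most of their group, up to 6 called in mock roots over time, and those called in opposite directions at the 2 times; CYCB1;1 was added after its values were seen. From each wider list up to 3 called genes per contrast were eligible.

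Alternatives were RLE factors, total library sizes, DESeq2 1.42.0, no low-count filter, a fit of the 6 libraries compared, the replicate number as a block, and leaving out each library. Same-numbered samples at 24 h deviated together in all 3 pairs (correlations of 0.3061, 0.2203 and 0.3549), a pairing taken from these data and not from the labels. There the block changed neither number of the 40 genes called.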

Additional observations from a re-analysis of the deposited data

Results flagged for a closer look

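The induction responses at 24 h and at 8 h differed, by the interaction test of edgeR, for 30 of the 40 genes, against 40.8% of all genes tested. The values below are log2 differences of the 2 responses, 24 h minus 8 h. Among B-type cyclins they were 1.21 for CYCB1;3, 1.17 for CYCB2;1, 1.11 for CYCB2;3, 1.07 for CYCB1;1, 0.85 for CYCB2;2, 0.84 for CYCB1;4, 0.61 for CYCB1;2 and 0.58 for CYCB2;4. Among A-type cyclins they were 0.75 for CYCA2;1, 0.74 for CYCA3;2, 0.53 for CYCA2;2, 0.50 for CYCA1;1 and -0.40 for CYCA2;3, the one gene with a negative value. CDKB2;1 had 0.87, CDKB2;2 had 0.55 and CDKB1;1 had 0.49. The Aurora kinases had 0.71 (AUR1), 0.57 (AUR2) and 0.56 (AUR3), and the checkpoint genes had 0.78 (CDC20.1), 0.70 (MAD2) and 0.69 (CDC20.2). The spindle genes had 0.61 (TPX2), 0.44 (EDE1), 0.42 (ATK1) and 0.35 (ATK5). Among phragmoplast genes the values were 0.66 for HINKEL, 0.61 for KNOLLE, 0.59 for PLEIADE and 0.55 for POK2.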

How the results depend on the processing

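At 24 h the number of the 40 genes called higher lay between 28 and 34 under every alternative, and 2 were lower in each. At 8 h the split was 5 higher and 7 lower with total library sizes, against 34.5% and 18.5% of all genes, and leaving out 1 library gave 8 to 17 lower; the cause was not tested. For the mock time difference DESeq2 called 28 of the 40 genes and 386 of all genes, the fit of 6 libraries called 0 and 0, and leaving out 1 library gave 0 to 21 of the 40 and 1 to 204 of all genes, against 17 and 142. With the replicate block the counts of the 40 genes were 29 higher and 2 lower at 24 h, 3 higher and 16 lower at 8 h, 20 higher in mock roots over time and 38 higher in induced roots over time. In that fit 271 of all genes were called in mock roots over time. Outside the 24 h comparison a pairing by replicate number was not shown for every sample. In each comparison 1 or more of the 3 same-number correlations was under 0.1 (0.0867 at 8 h, 0.0758 in mock roots, 0.0142 in induced roots). Not every sample correlated best with its own number. The highest same-number correlations there were 0.3495 at 8 h, 0.5283 in mock roots and 0.4504 in induced roots. The lowest depth, 34958324 counts, and 3 libraries per group limit what can be called: a p that misses the threshold does not show that levels were equal.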
